A study of Mus musculus with 12 samples.

Results

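The 3 NR4A nuclear receptor genes *Nr4a1*, *Nr4a2* and *Nr4a3*, the 3 early growth response genes *Egr1*, *Egr2* and *Egr3*, and the EGR corepressor gene *Nab2* were taken from the deposited expression table of Th9 cells by their symbols. All 7 were found, each in 1 row, among 32051 genes, and all 7 were among the 13733 genes tested. The set was selected on the FPKM of *Nr4a3*, which was higher with fatostatin and higher again with EpA and fatostatin together, so every value of *Nr4a3* below is a description without a test. Naive CD4+ T cells from the spleens of C57BL/6J mice were stimulated through CD3 and CD28 and cultured for 4 days with 10 ng/mL IL-4, 1 ng/mL TGF-β and antibodies blocking IL-12 and IFN-γ. The 4 groups, of 3 libraries each, received the DMSO vehicle, EpA (a cyclic lipopeptide of the surfactin type from a fungus), fatostatin (an inhibitor of SREBP activation) or both compounds throughout the culture. The labels did not say whether replicates came from separate mice or cultures, so the p-values measure the spread between these libraries, which may be technical.

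NR4A proteins are orphan nuclear receptors that bind DNA without a known natural ligand, and EGR proteins are zinc finger transcription factors. Both families are induced within hours of T cell receptor engagement, the EGR genes through ERK and serum response factor and the NR4A genes through calcium, calcineurin and cAMP response element binding protein (CREB). NAB2 is itself induced by EGR proteins and represses their activity. In T cells *Nr4a1* is widely used as a reporter of receptor signal strength, EGR2 and EGR3 are known for restraining activation and for anergy, and the NR4A receptors for tolerance, regulatory T cell maintenance and exhaustion. The libraries were made at day 4, long after the first wave of induction, and the comparisons bear on the study's question of how EpA and SREBP inhibition act on signaling in these cells.

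In GRCm38 (GENCODE M21) *Nr4a1* (ENSMUSG00000023034) lies at chr15:101254269-101274795, *Nr4a2* (ENSMUSG00000026826) at chr2:57106830-57124003 and *Nr4a3* (ENSMUSG00000028341) at chr4:48045153-48086447. *Egr2* (ENSMUSG00000037868) lies at chr10:67535475-67542188, *Egr3* (ENSMUSG00000033730) at chr14:70077203-70082614 and *Nab2* (ENSMUSG00000025402) at chr10:127660918-127668568. The values are per gene and do not separate isoforms.

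The promoter sequences are shown because the NR4A genes shared a dense array of CREB half-sites. RefSeq start sites (GRCm38.p6) were found for 5 of the 7 members, and *Egr1* and *Egr3* had no entry. The sequences below run 5′ to 3′ on the strand of the gene and stop where an annotated exon begins. Capitals mark the CRE half-site, TGACG on either strand, and in *Egr2* also the CArG box, the motif of serum response factor. They span chr15:101266596-101266845 on the plus strand for *Nr4a1*, chr2:57124004-57124253 on the minus strand for *Nr4a2*, chr4:48045055-48045152 on the plus strand for *Nr4a3* and chr10:67537619-67537868 on the plus strand for *Egr2*.
Nr4a1: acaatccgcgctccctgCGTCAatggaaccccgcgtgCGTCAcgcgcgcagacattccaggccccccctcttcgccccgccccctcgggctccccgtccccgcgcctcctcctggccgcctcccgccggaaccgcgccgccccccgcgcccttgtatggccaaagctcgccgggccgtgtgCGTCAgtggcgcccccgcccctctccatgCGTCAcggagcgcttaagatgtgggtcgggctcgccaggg
Nr4a2: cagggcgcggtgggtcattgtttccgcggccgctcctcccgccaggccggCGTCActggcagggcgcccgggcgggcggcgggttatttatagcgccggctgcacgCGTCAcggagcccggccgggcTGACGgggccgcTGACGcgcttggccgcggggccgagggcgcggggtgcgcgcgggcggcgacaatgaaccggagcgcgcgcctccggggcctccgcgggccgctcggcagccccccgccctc
Nr4a3: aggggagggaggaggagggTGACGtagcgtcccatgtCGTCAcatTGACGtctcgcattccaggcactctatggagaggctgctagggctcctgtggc
Egr2: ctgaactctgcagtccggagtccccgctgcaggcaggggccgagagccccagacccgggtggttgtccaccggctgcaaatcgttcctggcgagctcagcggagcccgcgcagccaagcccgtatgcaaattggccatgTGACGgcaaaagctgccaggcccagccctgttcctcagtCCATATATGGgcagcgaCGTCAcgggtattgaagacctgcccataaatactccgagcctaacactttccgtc

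In the 250 bases before the start, each of the 3 NR4A windows held 4 CRE half-sites. Of 32851 mouse windows of this length 17.8% held at least 1 and 45 windows, or 0.137%, held 4 or more, a count chosen after the members' windows had been seen. In *Nr4a3* 3 of the 4 lie in the 98 bases printed and the other lies in annotated exon sequence. Of the several *Egr2* start sites, the longest exon-free window with the most half-sites is shown, and it held 2 half-sites and 1 CArG box, which was present in 1.47% of windows. A zinc finger site of the EGR type, GCGNGGGCG, was found once in *Nr4a1* and once in *Nr4a2* (4.70% of windows). The NFAT core GGAAA was found once in each of the *Nr4a2* and *Egr2* windows (55.6% of windows). Another *Egr2* start, at position 67537566, had 3 NFAT cores (6.39% of windows held 3 or more), 1 CArG box and no CRE half-site in its window. The NR4A monomer site AAAGGTCA (1.34% of windows) and the full palindrome TGACGTCA were not among the letters of any member window, and the *Nab2* window held none of the motifs searched. Each motif was searched on both strands, and no binding was measured.

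**Figure D1:**
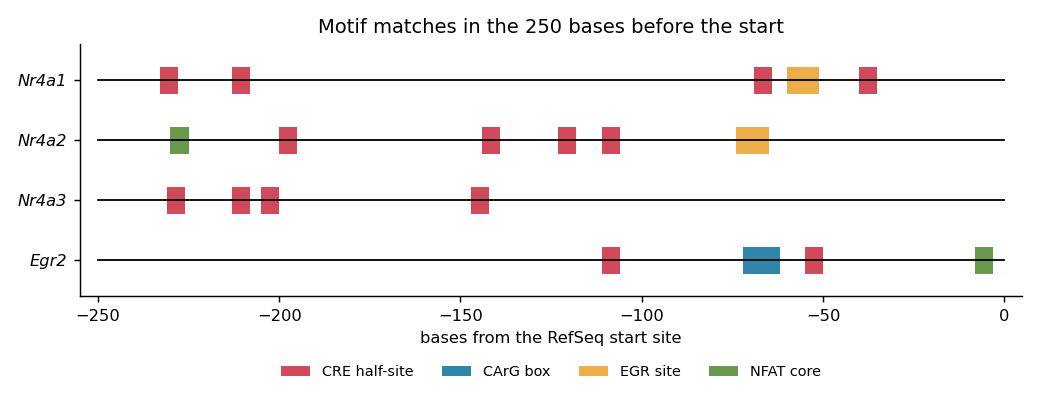
Motif matches in the 250 bases before the RefSeq start of 4 members. The horizontal axis is the distance from the start in bases, and each coloured block is 1 match on either strand. All 3 NR4A genes carry 4 CRE half-sites, and the CArG box is in *Egr2*.

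Values are FPKM, that is reads per gene scaled to exon length and to the reads on genes in the library, as deposited. The libraries held 36607311 to 44375796 reads on genes, so 1 read on a gene of 1 kb was worth 0.0225 to 0.0273 FPKM. Replicates correlated across genes at r = 0.985 to 0.988. Changes were tested in 1 limma fit over all 12 libraries on log2(FPKM + 0.1), which understates the change of low genes, with adjusted p (Benjamini-Hochberg over 13733 genes). A gene was called where the adjusted p was below 0.05 and the fold at least 1.5, and "rose" or "fell" below means an adjusted p below 0.05. T cell markers summed to 547 to 567 FPKM without EpA and to a lower 480 to 500 FPKM in the libraries with it. Th9 markers summed to 402 to 416 FPKM without EpA and to 951 to 1198 FPKM with it, a difference that was nearly all *Il9*. *Il9* averaged 54.6 FPKM in DMSO, 640 in EpA, 66.5 in fatostatin and 821 with both. *Batf* was also higher with EpA in both settings. *Il4ra* was lower with EpA (118 to 93.0 FPKM, and 111 to 89.4 with fatostatin). *Irf4* was lower with EpA alone (156 to 143 FPKM) but not with fatostatin (162 to 164). Because these are bulk samples, fewer cells of a type and less RNA per cell cannot be told apart.

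In DMSO the length-normalized levels fell in the order *Nab2*, *Egr2*, *Nr4a1*, *Nr4a3*, *Nr4a2*, *Egr1* and *Egr3*, from 6.55 ± 0.349 to 0.752 ± 0.0317 FPKM (SD, n = 3), and only the neighbours *Nab2* and *Egr2* overlapped. With EpA, *Nr4a2* passed *Nr4a3* in this order, and the libraries of *Egr2* and *Nr4a1*, of *Nr4a1* and *Nr4a2*, and of *Egr1* and *Egr3* overlapped. With fatostatin the libraries of *Nr4a3* and *Nr4a1*, of *Nr4a2* and *Egr1*, and of *Nab2* and *Egr2* overlapped. With both compounds *Nr4a3* was the most abundant of the 7 transcripts, at 7.61 FPKM, and its lowest library lay above the highest of *Nab2* in that group.

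*Nr4a2*, which encodes NURR1, was the NR4A member that rose with EpA. It measured 1.31, 1.42 and 1.63 FPKM in DMSO and 3.52, 3.46 and 3.71 FPKM in EpA. The ranges were far apart, and the log2 fold change was 1.25 (SE 0.0892, adjusted p = 2.19e-06), a 2.46-fold ratio of mean FPKM. With fatostatin alone it measured 1.97, 1.78 and 1.62 FPKM, overlapping DMSO, and the change of 0.29 did not reach the threshold (adjusted p = 0.0536). It passed in 4 of 22 alternatives (0.0242 to 0.0495), among them leaving out DMSO replicate 3 (0.0242) or fatostatin replicate 3 (0.0369). With both compounds it measured 3.99, 3.82 and 4.33 FPKM, all above every library without EpA. Against fatostatin alone this was a log2 fold change of 1.13 (adjusted p = 3.64e-06), and against EpA alone one of 0.18 (adjusted p = 0.222).

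*Nr4a3*, which encodes NOR1, measured 2.61, 2.62 and 2.60 FPKM in DMSO and 2.63, 2.76 and 2.56 FPKM in EpA, so that the ranges overlapped. It measured 5.36, 5.58 and 5.01 FPKM with fatostatin and 7.61, 7.79 and 7.43 FPKM with both compounds. The 3 levels (without fatostatin, with it, and with it and EpA) did not overlap, which is the pattern that chose the set. The log2 fold change was 0.02 for EpA against DMSO, 1.00 for fatostatin against DMSO and 1.51 for both compounds against DMSO. EpA thus went with a 1.02-fold ratio of mean FPKM in the absence of fatostatin and a 1.43-fold ratio in its presence, and the difference of the log2 effects was 0.49.

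*Nr4a1*, which encodes NUR77, varied least of the receptors. It measured 4.58, 4.14 and 4.34 FPKM in DMSO, 4.61, 3.70 and 4.64 FPKM in EpA, 5.68, 4.90 and 5.07 FPKM in fatostatin and 5.07, 5.55 and 5.56 FPKM with both compounds. The EpA libraries overlapped DMSO (log2 fold change -0.02, adjusted p = 0.911), whereas every fatostatin library lay above every library without it. With both compounds it rose by a log2 fold change of 0.32 against EpA (SE 0.0874, adjusted p = 0.0289) and of 0.30 against DMSO (adjusted p = 0.0189), both under 1.5-fold. Fatostatin alone against DMSO gave 0.25 (adjusted p = 0.0811). The rise against EpA did not pass in 4 of 22 alternatives, which were the fit of only the groups compared (adjusted p = 0.0833) and leaving out EpA replicate 2 (0.0790) or both-compound replicate 2 (0.0842) or 3 (0.0861). That against DMSO did not pass in 3 of 22, without both-compound replicate 2 (0.0595) or 3 (0.0595) or DMSO replicate 2 (0.0664). Fatostatin alone passed in 2 of 22, without EpA replicate 2, which enters only through the shared spread (adjusted p = 0.0241), and by limma-voom (0.0258).

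**Figure D2:**
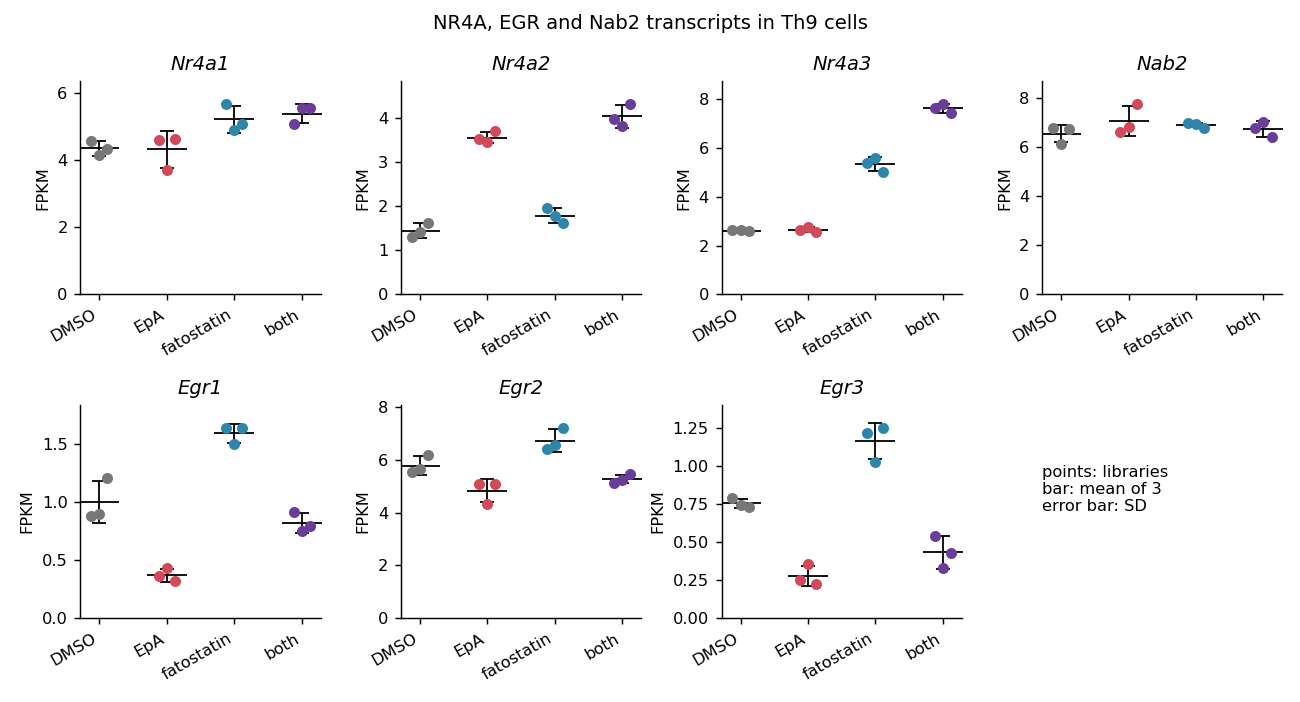
FPKM of the 7 members in each library. Points are libraries, the horizontal bar is the mean of 3 and the error bar the SD, and each axis starts at 0. *Nr4a2* is high in both groups with EpA, *Nr4a3* in both groups with fatostatin, and *Egr1* and *Egr3* are lowest in EpA.

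All 3 EGR genes fell with EpA. *Egr1*, an immediate target of ERK signaling, measured 0.883, 0.901 and 1.21 FPKM in DMSO and 0.359, 0.431 and 0.316 FPKM in EpA. The groups did not overlap, and *Egr1* fell by 1.22 on the log2 scale (SE 0.136, adjusted p = 5.63e-05). With fatostatin it measured 1.633, 1.499 and 1.641 FPKM, above every DMSO library, a rise of 0.64 (adjusted p = 0.00897). That rise stayed past the adjusted p but under 1.5-fold without DMSO replicate 1 (0.56) or 2 (0.58). With both compounds it measured 0.913, 0.751 and 0.789 FPKM and overlapped DMSO (log2 fold change -0.25, adjusted p = 0.186). It was higher there than in EpA by 0.97 (adjusted p = 0.000584) and lower than in fatostatin (log2 fold change -0.88, adjusted p = 0.000516).

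*Egr3*, a target of NFAT and of ERK signaling, measured 0.787, 0.744 and 0.726 FPKM in DMSO and 0.251, 0.353 and 0.225 FPKM in EpA. The EpA values rest on 42 to 62 reads per library. *Egr3* fell by 1.19 on the log2 scale with EpA (SE 0.169, adjusted p = 0.000338). With fatostatin it measured 1.21, 1.02 and 1.25 FPKM, above every DMSO library. That log2 fold change of 0.56 was under 1.5-fold and barely passed (adjusted p = 0.0483), and it no longer passed in 12 of 21 alternatives (adjusted p 0.0516 to 0.137). These included leaving out any 1 of the DMSO or fatostatin libraries (0.0596 to 0.137), EpA replicate 1 (0.0608) or both-compound replicate 3 (0.0645). With both compounds it measured 0.539, 0.328 and 0.426 FPKM, below every DMSO library. It fell there against fatostatin (log2 fold change -1.26, adjusted p = 0.000201) and against DMSO (-0.70, adjusted p = 0.00724), the latter reaching only -0.55 without both-compound replicate 2. Against EpA the log2 fold change of 0.49 did not pass (adjusted p = 0.0729), but it did without EpA replicate 2 (0.0363) or both-compound replicate 2 (0.0327).

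*Egr2*, the most abundant EGR transcript, moved in the same directions by less. It measured 5.53, 5.64 and 6.20 FPKM in DMSO, 5.08, 4.34 and 5.09 FPKM in EpA, 6.41, 6.57 and 7.23 FPKM in fatostatin and 5.14, 5.25 and 5.45 FPKM with both compounds. None of the EpA libraries reached a DMSO library, and the fatostatin libraries were all above DMSO. *Egr2* fell by 0.26 with EpA (adjusted p = 0.0185) and by 0.34 with EpA in the presence of fatostatin (adjusted p = 0.00324), both under 1.5-fold. The former did not pass in 3 of 22 alternatives, without DMSO replicate 3 (adjusted p = 0.0757) or EpA replicate 2 (0.0647) and in the fit of only the groups compared (0.0518). Fatostatin against DMSO gave 0.22 (adjusted p = 0.0656), which passed in 5 of 22 alternatives (0.0297 to 0.0495), among them leaving out DMSO replicate 3 (0.0495) or EpA replicate 2 (0.0304).

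*Nab2* showed no change that passed. Its 12 libraries lay between 6.15 and 7.77 FPKM, the groups overlapped in each comparison except fatostatin against DMSO, and the adjusted p lay between 0.249 and 0.735 in the pairwise comparisons. Its values are uncertain, because 35.7% of its exon bases overlap *Gm16229* on the opposite strand, with shorter overlaps with *Nemp1* and *Stat6*, and the strand setting of the counting was not stated. The exons of the other 6 members overlap no other gene.

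The members were chosen with earlier results of these data known, so the counts here cannot be taken as independent of that choice. Counted over the 6 members other than *Nr4a3*, EpA against DMSO called 1 higher (*Nr4a2*) and 2 lower (*Egr1* and *Egr3*), beside 3.38% of all genes (1.44% higher and 1.94% lower). EpA in the presence of fatostatin called the same 3 genes in the same directions, beside 3.75% (1.89% and 1.86%). Fatostatin against DMSO called only *Egr1*, higher, beside 1.86% (1.35% and 0.502%), and fatostatin in the presence of EpA likewise only *Egr1*, beside 1.99% (1.51% and 0.481%). Both compounds against DMSO called *Nr4a2* higher and *Egr3* lower, beside 5.64% (3.63% and 2.02%). Over the same 6 members, the groups did not overlap for 4 with EpA (42.4% of all genes), 5 with fatostatin (31.3%), 4 for both compounds against EpA (33.3%), 4 against fatostatin (41.4%) and 4 against DMSO (46.4%). These comparisons share libraries, so their counts are not independent of each other.

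**Figure D3:**
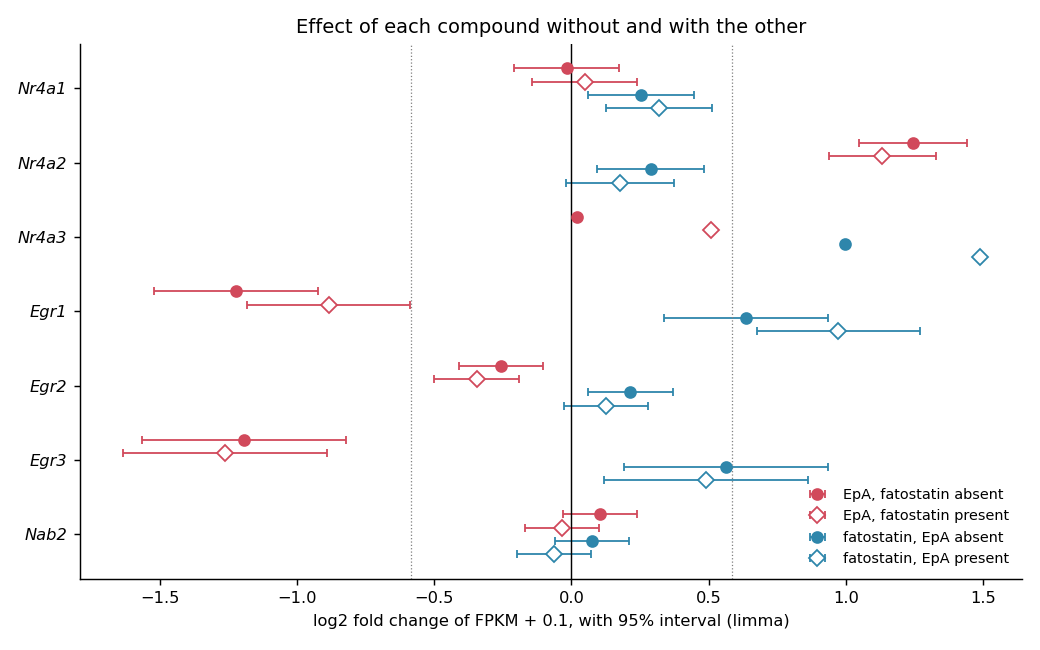
Log2 fold change of each member for EpA (red) and fatostatin (blue), without (filled circles) and with (open diamonds) the other compound. Bars are 95% intervals from limma, drawn for all but *Nr4a3*, and dotted lines mark 1.5-fold. *Nr4a2* lies to the right and *Egr1* and *Egr3* to the left for EpA in both settings.

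Whether EpA acted differently with fatostatin present was tested as an interaction. No member passed (adjusted p 0.747 to 0.980 over the 6 tested), beside 0% of all genes called, 6 genes (0.0437%) with an adjusted p below 0.05 at any fold, 1083 with an unadjusted p below 0.05, and 1 gene called by limma-voom on reads recovered from the FPKM values. The difference of the log2 effects was 0.34 for *Egr1* (95% interval -0.09 to 0.76), -0.07 for *Egr3* (-0.60 to 0.46) and -0.11 for *Nr4a2* (-0.39 to 0.16). On the log2 scale the sum of the single effects of *Nr4a3* was 1.02 and the value with both compounds 1.51.

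The transcripts were also summed over each family. The NR4A transcripts added up to 8.41 ± 0.208 FPKM in DMSO, 10.5 ± 0.539 in EpA, 12.3 ± 0.651 in fatostatin and 17.0 ± 0.335 with both compounds (SD, n = 3). The EGR transcripts added up to 7.54 ± 0.514, 5.48 ± 0.312, 9.49 ± 0.550 and 6.53 ± 0.180 FPKM in the same order. The ratio of NR4A to EGR was 1.05 to 1.18 in DMSO, 1.89 to 1.94 in EpA, 1.16 to 1.40 in fatostatin and 2.53 to 2.71 with both compounds. Only the ranges of DMSO and fatostatin overlapped. With *Nr4a3* in the NR4A sum this ratio is a description, as are the shares below. Without *Nr4a3* the ratio was 0.734 to 0.817 in DMSO and 0.662 to 0.826 in fatostatin, and 1.40 to 1.48 in EpA and 1.37 to 1.48 with both compounds, so that it separated the groups by EpA and not by fatostatin.

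The share of *Nr4a1* in the NR4A sum was 51.7% in DMSO and 31.6% with both compounds, where *Nr4a3* made up 44.7%. In EpA *Nr4a2* held 33.9%, against 17.2% in DMSO. *Egr2* held 71.0% to 88.1% of the EGR sum, highest in EpA and lowest in fatostatin.

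**Figure D4:**
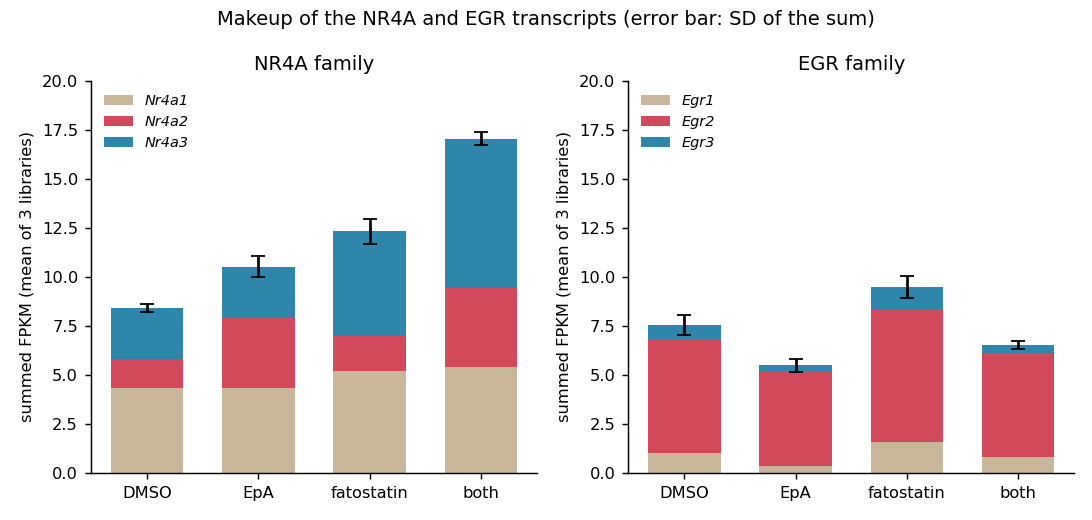
Mean FPKM of the NR4A (left) and EGR (right) transcripts stacked by gene in the 4 groups, with the SD of the sum over 3 libraries. The NR4A sum is largest with both compounds at 17.0 FPKM, and the EGR sum is smallest in EpA at 5.48 FPKM.

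Markers of other cells were low but moved with the groups. Of the B cell markers, *Cd79b* measured 5.08 to 6.91 FPKM in DMSO, 4.66 to 5.43 in EpA, 6.38 to 7.43 in fatostatin and 5.06 to 5.79 with both. *Cd79a* stayed at or below 0.981 FPKM and *Ms4a1* at or below 0.0731 FPKM. The natural killer list summed to 7.25 to 8.82 FPKM without EpA and to 4.05 to 6.42 with it, nearly all *Nkg7*, and *Ncr1* and *Klrb1c* stayed at or below 0.0659 FPKM. The myeloid list summed to 0.0533 to 0.153 FPKM in DMSO, 0.213 to 0.352 in EpA, 0.216 to 0.340 in fatostatin and 0.378 to 0.575 with both compounds. The CD8 list summed to 8.71 to 9.79 FPKM in DMSO and 8.55 to 10.2 in fatostatin, against 7.85 to 8.57 in EpA and 6.98 to 8.60 with both compounds. The erythroid list summed to 1.15 to 1.35 FPKM in DMSO, 0.202 to 1.91 in EpA, 1.08 to 1.18 in fatostatin and 0.384 to 1.117 with both. *Cd79b* and the natural killer, CD8 and T cell sums had their lowest values in groups with EpA, as the EGR sum had, and the myeloid sum its highest with both compounds, as the NR4A sum had. Their part in these results was not tested.

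The genes whose profile across the 12 libraries lay nearest each member were ranked by the root mean square difference of log2 values centred on DMSO, with the minimum mean set at 1 FPKM. For *Nr4a2* they were *Arhgef40* (0.117), *Gpr83* (0.131) and *Tmeff1* (0.189), and for *Nr4a3* they were *Inka2* (0.221), *Zfp365* (0.222) and *Trp53inp1* (0.222). *Ipcef1* (0.185) lay nearest *Egr1*, *Hgf* (0.216) nearest *Egr3*, *Zxdb* (0.0697) nearest *Egr2*, *Zfp950* (0.0789) nearest *Nr4a1* and *Skp2* (0.0453) nearest *Nab2*. Of the lists below, 1 gene was among the 3 nearest of a member, the diacylglycerol kinase gene *Dgka* for *Egr2* (0.0819).

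Among partners of the families, *Egr4* was listed at 0 in all 12 libraries. None of *Nab1*, *Rxra*, *Rxrb* and *Chd4* was called in any comparison. *Nab1*, the corepressor related to *Nab2*, fell by 0.27 with EpA in the presence of fatostatin (adjusted p = 0.000473), and *Rxra*, the retinoid receptor that pairs with NR4A1 and NR4A2, fell by 0.21 with EpA (adjusted p = 0.00205).

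Of 23 tested regulators upstream of these genes (calcineurin, NFAT, CREB, MEF2, ERK and serum response factor components), 1 was called with EpA (3.38% of all genes) and none with fatostatin (1.86%). It was *Crem*, the cAMP responsive modulator, whose mean rose from 20.99 FPKM in DMSO to 32.4 in EpA (log2 fold change 0.63, adjusted p = 5.73e-09) and to 36.8 with both compounds (0.81). Below 1.5-fold, 8 others fell with EpA (13.1% of all genes fell), and the list median of -0.07 compares with 0.00 over all genes. *Crem* is a target of CREB as well as a regulator.

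Of 24 other early response genes, EpA called 2 higher and 1 lower (1.44% and 1.94% of all genes), with 10 higher and 5 lower at any fold (14.3% and 13.1% of all genes), and a median of 0.13. With both compounds against DMSO 6 were called higher and 1 lower (3.63% and 2.02%), with 15 higher and 4 lower at any fold (19.7% and 15.8% of all genes), and a median of 0.28 beside 0.02 over all genes. *Fosl2*, an AP-1 subunit, rose from 6.00 to 9.56 FPKM with EpA (0.66, adjusted p = 7.61e-07) and fell slightly with fatostatin (-0.17, adjusted p = 0.0196). *Fosl1*, another AP-1 subunit, was low throughout, at 4 to 30 reads per library, and rose from 0.0745 to 0.249 FPKM with both compounds (0.95, adjusted p = 0.0172). *Ier3* measured 10.4, 16.3, 8.75 and 14.9 FPKM in DMSO, EpA, fatostatin and both, and like *Fosl2* it rose with EpA and fell with fatostatin alone. *Atf3*, a stress-induced factor, and *Nfkbia*, the inhibitor of NF-κB, rose with each compound and were highest with both, at 23.2 and 54.1 FPKM.

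Of 14 genes associated with EGR2 and EGR3 in anergy, *Nrgn*, which encodes the calmodulin-binding protein neurogranin, moved as *Egr1* and *Egr3* did. Its mean was 3.08 FPKM in DMSO, 1.47 in EpA (log2 fold change -0.99, adjusted p = 0.000588), 4.75 in fatostatin (0.63, adjusted p = 0.0171) and 2.15 with both. *Cdkn1a*, the cell cycle inhibitor p21, went the opposite way with EpA, from 26.2 to 52.2 FPKM (0.99, adjusted p = 4.26e-10), and reached 87.2 FPKM with both compounds. *Crtam*, an adhesion and costimulatory receptor, fell with EpA in the presence of fatostatin, from 0.361 to 0.181 FPKM (-0.70, adjusted p = 0.0188). It had 60 to 93 reads per library in fatostatin and 34 to 42 with both. With EpA the list had 1 gene called in each direction (1.44% higher and 1.94% lower over all genes), 2 higher and 5 lower at any fold (14.3% and 13.1%), and a median of -0.06. With fatostatin 2 were called higher (1.35%), but 1 without DMSO replicate 2 or 3 or fatostatin replicate 3.

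Of 14 genes associated with NR4A in tolerance and exhaustion, EpA called 4 lower and none higher, beside 1.94% and 1.44% of all genes. At any fold 5 were higher and 6 lower (14.3% and 13.1%). *Entpd1*, the ectoenzyme CD39, fell from 2.46 to 0.911 FPKM (-1.34, adjusted p = 4.27e-06). *Tox*, a regulator of exhaustion, fell from 0.250 to 0.0646 FPKM (-1.08, adjusted p = 0.00251), and *Foxp3*, the regulatory T cell factor, from 1.867 to 1.201 FPKM (-0.60, adjusted p = 0.00152). The *Tox* values rest on 57 to 108 reads per library in DMSO and 14 to 24 in EpA. *Tox2* fell with fatostatin instead, from 1.48 to 0.875 FPKM (-0.70, adjusted p = 0.00277). *Cd200* rose with each compound and with both reached 12.6 FPKM from 6.75. With both compounds against DMSO, 6 of the list were called lower and 1 higher (2.02% and 3.63% of all genes), and at any fold 7 were lower and 5 higher (15.8% and 19.7%). The 4 genes called lower with EpA were 2 without EpA replicate 2.

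**Figure D5:**
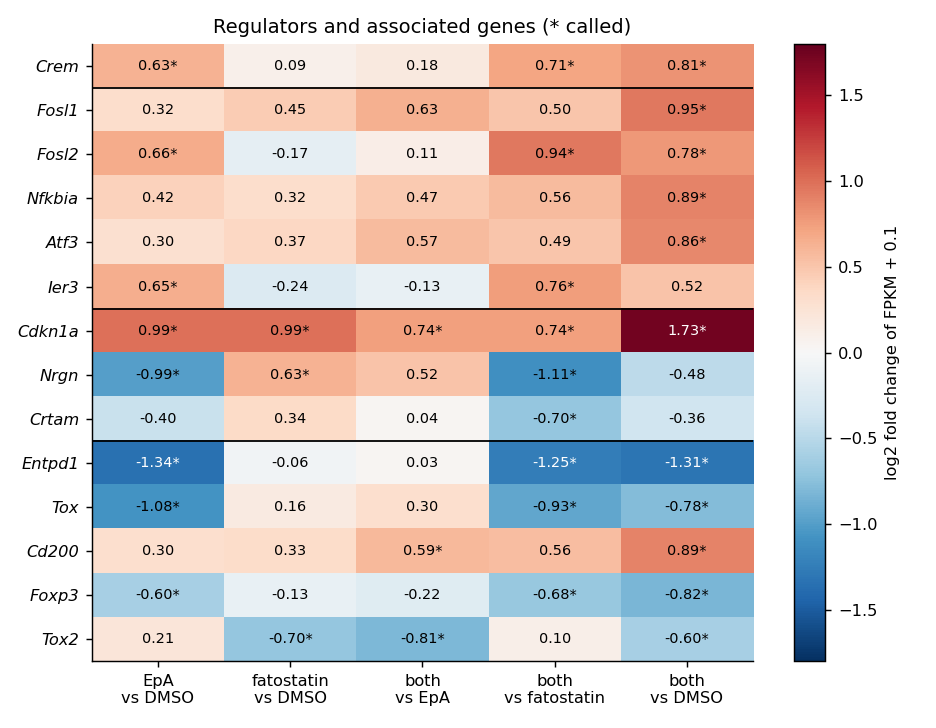
Log2 fold change of the named list genes (rows) in 5 comparisons (columns), with an asterisk where the gene was called. Red is higher and blue lower. *Crem*, *Fosl2* and *Cdkn1a* are higher and *Nrgn*, *Entpd1* and *Tox* lower wherever EpA was added.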

How the data were processed

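The authors trimmed the reads, aligned them to GRCm38 with HISAT2 and counted them per gene, and the deposited values are FPKM per gene and library. The table has 32352 lines, of which 301 repeat a gene with identical values and were dropped, leaving 32051 genes, and 0 columns belonged to no sample. FPKM times exon length (GENCODE M21) gave whole reads, within 0.05, for 98.4% to 98.6% of values; these reads give the depths and the limma-voom alternative.

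Genes whose mean reached 0.1 FPKM were tested by limma 3.58.1 (R 4.3.3) on log2(FPKM + 0.1) with an intensity trend, over 4 group means in 12 libraries, two-sided. An exact permutation test of 3 against 3 cannot go below 0.1 and was not used. The script was tested on simulated data. The members and lists were chosen with earlier results of these data known. The text names all 7 members, up to 5 called genes per list by largest change, and the genes nearest each member by profile. Replicate numbers did not pair the samples (deviations of samples with the same number correlated at r = -0.0472 to 0.0744). Alternatives were other pseudocounts, filters, scalings and fold thresholds, limma-voom, a replicate block, only the groups compared, and leaving out each library. Promoter windows came from RefSeq. The level of 1 B cell marker is not reported here.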

Additional observations from a re-analysis of the deposited data

Results flagged for a closer look

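*Cdkn1a*, which encodes p21, was the 1 gene on the lists whose EpA effect on the log2 scale differed with and without fatostatin, by the interaction term in limma. Its log2 fold change was 0.99 for EpA against DMSO and 0.74 for both compounds against fatostatin, and the difference was -0.25 (SE 0.0315, adjusted p = 0.0372), under 1.5-fold. Mean levels were 26.2 FPKM in DMSO, 52.2 in EpA, 52.2 in fatostatin and 87.2 with both compounds. In FPKM the step with EpA was thus larger, not smaller, in the presence of fatostatin.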

How the results depend on the processing

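Over the alternatives, 855 of 905 recomputed member log2 fold changes were counted as kept. A tested member had to keep its direction and its side of the adjusted p of 0.05, whatever the fold. *Nr4a3* had to stay within its replicate SD of the main value. Its EpA effect against DMSO, from -0.00865 to 0.0452, therefore counted as kept although its sign turned. Against 3, 1, 1, 3 and 2 members called for EpA against DMSO, fatostatin against DMSO, both against EpA, both against fatostatin and both against DMSO, a pseudocount of 1 FPKM gave 1, 0, 0, 2 and 1. A minimum mean of 1 FPKM, which leaves out *Egr1* and *Egr3*, gave 1, 0, 0, 1 and 1. Limma-voom gave 2 for fatostatin, and a 1.2-fold threshold gave 2 for fatostatin and 2 for both against EpA. That threshold also added *Egr2* for both against fatostatin and *Nr4a1* for both against DMSO. Leaving out 1 library gave 0 to 1 for fatostatin against DMSO (0 without DMSO replicate 1 or 2), 1 to 2 for both against EpA (2 without EpA replicate 2 or both-compound replicate 2) and 1 to 2 for both against DMSO (1 without both-compound replicate 2). Leaving out 1 library also turned the sign of small log2 values. These ran from -0.0727 to 0.0878 for *Nr4a1* with EpA, for *Nab2* from -0.108 to 0.00720 (both against EpA), -0.0649 to 0.00241 (against fatostatin) and -0.00234 to 0.0783 (against DMSO), and for the difference of EpA effects from -0.0396 to 0.127 in *Nr4a1* and from -0.214 to 0.0766 in *Egr3*. That of *Egr3* was also 0.00408 with a pseudocount of 0.01 FPKM and 0.0135 by limma-voom. The cause was not tested. Over all genes, the calls numbered 464, 255, 273, 515 and 775, against 141, 89, 84, 161 and 285 with a pseudocount of 1 FPKM, 216, 143, 147, 252 and 389 with the 1 FPKM minimum, and 1494, 724, 848, 1688 and 2267 at 1.2-fold. The interaction called 0 genes, and at most 4 (at 1.2-fold). With the replicate number as a block the members called were again 3, 1, 1, 3 and 2 and the gene calls 449, 252, 266, 499 and 768, but *Egr3* with fatostatin had an adjusted p of 0.0738 and *Egr2* one of 0.0297. *Nr4a3* ran from 0.81 to 1.04 for fatostatin and from 0.45 to 0.55 for EpA in its presence. Depth limits *Egr3* and *Egr1* most, with 42 to 77 reads per library in EpA.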

Other observations

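List genes called but not among those named by the rule were looked at after their values were seen. *Zfp36*, which encodes the mRNA decay factor tristetraprolin, fell from 7.71 FPKM in DMSO to 4.78 in EpA (log2 fold change -0.68, adjusted p = 2.59e-05) and measured 5.86 with fatostatin and 4.64 with both compounds. *Tigit*, an inhibitory receptor, fell from 10.5 to 6.52 FPKM with EpA (-0.69, adjusted p = 0.00109). *Icos*, a costimulatory receptor, measured 70.3 FPKM in DMSO and 46.5 with both compounds (-0.59, adjusted p = 4.93e-08). *Cd69*, an early activation marker, measured 1.01 FPKM in DMSO and 1.59 with both (0.61, adjusted p = 0.000635), and *Klf4* 0.610 and 0.972 FPKM (0.59, adjusted p = 0.00339).

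Among the genes nearest in profile, *Gpr83* measured 1.37, 3.32, 1.68 and 3.96 FPKM in DMSO, EpA, fatostatin and both, beside *Nr4a2*. *Ipcef1* measured 1.88, 0.668, 2.95 and 1.47 FPKM in the same order, beside *Egr1*. *Trp53inp1*, a p53 target, measured 13.9, 14.0, 30.88 and 30.04 FPKM, beside *Nr4a3*.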
